A study of Mus musculus with 12 samples.

Results

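Nt5dc2, Plac8 and Dapl1 are 3 genes outside the cytotoxic programme that lay far higher in CD8SP than in CD4SP thymocytes. They were followed here across 4 sorted stages of mouse thymocyte development. The members are the probe sets to which the platform annotation gives only the symbol Nt5dc2, Plac8 or Dapl1. There were 3 of them, 1 per gene, among 45101 probe sets on the array: 1424882_a_at for Nt5dc2, 1451335_at for Plac8 and 1453568_at for Dapl1. Each gene's value is therefore the value of 1 probe set, and no second probe set could be set against it. The genes were chosen by their CD8SP against CD4SP difference in these same arrays. That difference, and every other one that uses a CD8SP or CD4SP array, is given below as a description without a test. Only DN against DP was tested. Its difference uses neither group, but its error is pooled over all 12 arrays, so a fit of the 6 DN and DP arrays alone is given beside it.

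The thymocytes came from C57BL/6 mice, were not treated or cultured, and were sorted into 4 groups, each read on 3 Affymetrix arrays. DN cells lacked CD4, CD8α and TCRβ, and DP cells carried both coreceptors. CD4SP cells carried CD4 without CD8α and with high TCRβ, and CD8SP cells carried CD8α without CD4 and with high TCRβ. The age, sex and number of the mice are not given in the sources used here, nor whether the replicates came from separate animals, so each p-value measures only the spread between these arrays. The deposited values are logarithms from which the mean of the 3 DP arrays has been subtracted probe set by probe set. A value of 0 therefore means "as in DP", and it is not known how far above background any gene lay. The log base is not stated. It was read as 2, and fold differences hold only under that reading.

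In the thymus, DN progenitors rearrange their receptor genes and become DP cells, and DP cells that pass selection leave that stage as CD4SP or CD8SP cells. CD8SP cells are the precursors of killer T cells, and CD4SP cells those of helper T cells. Nt5dc2 encodes a protein with a domain of the 5′-nucleotidase type, a fold found in enzymes that remove phosphate from nucleotides, although its own substrate is not established. Plac8, also called onzin, encodes a small cysteine-rich protein that was first known from placenta and is abundant in many leukocytes, myeloid cells among them. Dapl1 encodes a small relative of the death-associated protein Dap, a target of the growth kinase mTOR that restrains autophagy, and its transcript is known from resting CD8 T cells.

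The starts of the 3 genes are shown because the members, by the choice, share a direction between the single-positive subsets. The sequences let a reader see what their promoters have in common. Each window runs from 250 bases before to 50 bases after a gene start in RefSeq (GRCm38.p6), on the gene's own strand. Capitals mark matches, on either strand, to 5 short motifs: TGTGGT (Runx), AGGAAG (Ets), CCACCC (Klf), AGGTGT (T-box) and CTTTGA (Tcf and Lef). The Nt5dc2 window is chr14:31130839-31131138 on the plus strand, the Plac8 window chr5:100572156-100572455 on the minus strand, and the Dapl1 window chr2:59484403-59484702 on the plus strand.
Nt5dc2: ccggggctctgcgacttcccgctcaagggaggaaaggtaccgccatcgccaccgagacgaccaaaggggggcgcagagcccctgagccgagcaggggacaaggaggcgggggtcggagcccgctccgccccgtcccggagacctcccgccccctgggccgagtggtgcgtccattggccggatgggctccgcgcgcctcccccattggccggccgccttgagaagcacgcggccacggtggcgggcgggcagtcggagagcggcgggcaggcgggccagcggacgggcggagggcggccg
Plac8: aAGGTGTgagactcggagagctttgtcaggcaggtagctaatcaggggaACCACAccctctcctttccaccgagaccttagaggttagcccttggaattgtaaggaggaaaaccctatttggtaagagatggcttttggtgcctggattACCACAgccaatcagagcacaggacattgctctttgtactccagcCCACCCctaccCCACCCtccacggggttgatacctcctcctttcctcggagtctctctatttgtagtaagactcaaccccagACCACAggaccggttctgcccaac
Dapl1: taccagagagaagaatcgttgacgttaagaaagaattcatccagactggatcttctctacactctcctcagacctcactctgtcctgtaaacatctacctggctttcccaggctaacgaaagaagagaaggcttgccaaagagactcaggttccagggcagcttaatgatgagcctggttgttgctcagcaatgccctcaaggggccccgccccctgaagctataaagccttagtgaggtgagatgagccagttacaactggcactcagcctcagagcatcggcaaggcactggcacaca

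The 3 windows did not share a motif. Plac8 held 3 matches to the Runx motif, all as its reverse complement ACCACA, which begin at positions -201, -101 and 27 from the start. It also held 2 matches to the Klf motif, at -56 and -45, and 1 to the T-box motif, at -249, and no match overlapped another. Of 32851 promoter windows of the same length, 16.8% held the Runx motif at least 1 time and 0.183%, or 60 windows, held it 3 or more times. The threshold of 3 is the count in the Plac8 window and was applied only to the Runx motif. The share of 0.183% is thus a description and not a test. The Klf motif was in 31.5% of windows, the T-box motif in 13.7%, the Ets motif in 35.4% and the Tcf and Lef motif in 16.0%. The Nt5dc2 and Dapl1 windows shown held none of the 5 motifs. The Nt5dc2 window had a GC content of 76.3%, against 52.7% in the Plac8 window, 51.0% in the Dapl1 window and a median of 52.7% over all windows. RefSeq lists a second start for Nt5dc2, whose window holds 1 match to the Ets motif at -180, and a second start for Plac8, whose window holds none of the 5. A match is only a run of letters and is not evidence that a factor binds there.

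The sort genes separated the single-positive subsets as their labels say, and the DN arrays lay between. The coreceptor gene Cd4 lay between -9.20 and -8.39 in CD8SP and between -0.76 and -0.52 in CD4SP. Cd8a lay between -6.84 and -6.35 in CD4SP and between -0.44 and -0.20 in CD8SP. On DN replicates 1, 2 and 3, Cd4 lay at -3.88, -6.49 and -5.29 and Cd8a at -2.63, -4.59 and -3.94, highest on replicate 1 for both. CD8SP replicate 1 had the lowest array weight (0.276, against 0.527 to 1.81 on the other arrays), followed by DN replicate 1 (0.527).

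Nt5dc2 was highest in DN and lower at each later stage, and it lay far below DP in CD4SP. Its log2 values relative to DP were 1.76, 1.58 and 1.39 on the DN arrays and 0.18, -0.02 and -0.16 on the DP arrays. They were -5.93, -6.05 and -5.77 in CD4SP and -2.19, -2.07 and -2.08 in CD8SP. No array of one group overlapped another group, and the order was DN, DP, CD8SP, CD4SP. The group means were 1.58 ± 0.18 in DN, -5.92 ± 0.14 in CD4SP and -2.12 ± 0.07 in CD8SP (SD, n = 3).

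The name of a gene high in CD8SP held for Nt5dc2 only against CD4SP. CD8SP lay below DP, by 2.12 ± 0.12 (log2 difference ± SE of the fit, 4.34-fold), while CD4SP cells lay 5.92 ± 0.12 below DP (60.5-fold). This difference of CD4SP from DP ranked 16th from the lowest of 18193 genes. CD8SP lay above CD4SP by 3.80 ± 0.12 (13.9-fold), the 8th highest such difference, and this is the value by which the gene was chosen. Against DN, CD8SP lay lower by 3.69 ± 0.12 and CD4SP by 7.50 ± 0.12, the 6th lowest value of that comparison. In sorted populations, fewer cells that express a gene and less RNA per cell cannot be told apart.

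Plac8 was high in DN and CD8SP and low in DP and CD4SP. Its log2 values relative to DP were 5.19, 5.57 and 5.79 in DN and 0.28, -0.53 and 0.25 in DP. They were 0.74, 0.43 and 0.74 in CD4SP and 4.05, 4.46 and 4.53 in CD8SP. The order was DN, CD8SP, CD4SP, DP, again with no overlap between neighbours. The means were 5.52 ± 0.31 in DN, 0.64 ± 0.18 in CD4SP and 4.34 ± 0.26 in CD8SP (SD, n = 3), and the DP arrays had an SD of 0.46.

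The step from DP to CD4SP was the smallest of these, at 0.64 ± 0.23, and was 0.37 without DP replicate 2. The arrays of the 2 groups did not overlap, but 26.1% of all genes lay higher in CD4SP in that sense. CD8SP lay above DP by 4.34 ± 0.23 (20.3-fold) and above CD4SP by 3.71 ± 0.23 (13.1-fold, the 10th highest of 18193, and the value that chose the gene). CD8SP still lay below DN, by 1.17 ± 0.23. CD4SP lay 4.88 ± 0.23 below DN (29.4-fold), so that CD4SP stayed close to DP while DN and CD8SP lay far above both.

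Dapl1 showed yet another pattern, near DP level in DN and far above it in both single-positive subsets. Its log2 values relative to DP were -0.27, 0.02 and -0.28 in DN and -0.15, 0.03 and 0.12 in DP. They were 3.69, 4.30 and 3.69 in CD4SP and 5.61, 6.38 and 6.29 in CD8SP. The DN and DP arrays overlapped, and the other neighbours in the order did not. The means were -0.18 ± 0.17 in DN, 3.89 ± 0.35 in CD4SP and 6.10 ± 0.42 in CD8SP (SD, n = 3).

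High Dapl1 values were not confined to CD8SP. CD4SP lay 3.89 ± 0.22 above DP (14.9-fold) and CD8SP 6.10 ± 0.22 above it (68.4-fold). Against DN, the CD8SP difference of 6.27 ± 0.22 (77.3-fold) was the highest of all 18193 genes, and against DP it ranked 12th. CD4SP lay 4.07 ± 0.22 above DN, the 17th highest value. The difference between the single-positive subsets, by which the gene was chosen, was 2.20 ± 0.22 (4.60-fold) and ranked 31st. CD8SP replicate 1 had the lowest value of its group for all 3 genes. Without it, the differences of CD8SP from CD4SP were 3.84 for Nt5dc2, 3.86 for Plac8 and 2.44 for Dapl1.

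**Figure D1:**
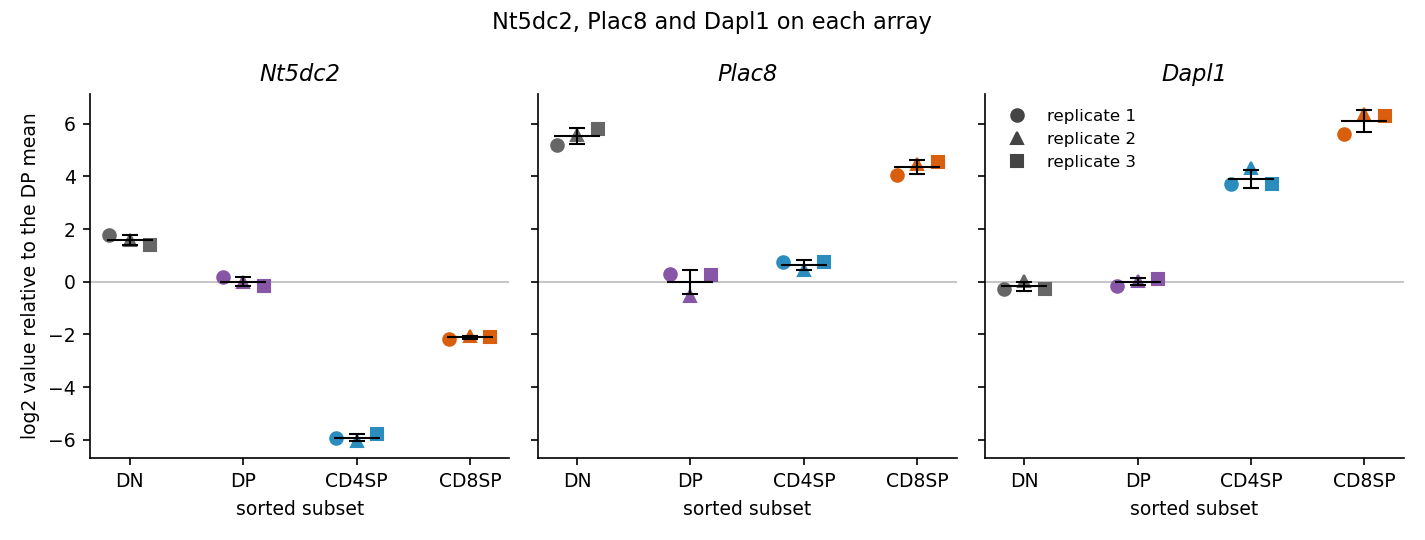
Log2 values of Nt5dc2, Plac8 and Dapl1 relative to the DP mean (vertical axis) on the 12 arrays, by sorted subset (horizontal axis); symbols are replicates, and bars give the mean ± SD of 3 arrays. In each panel the 3 CD8SP arrays lie above the 3 CD4SP arrays, but Nt5dc2 lies below 0 in both subsets, Dapl1 above 0 in both, and Plac8 close to 0 in CD4SP with a mean of 4.34 in CD8SP.

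DN against DP is the comparison that shares no array with the choice of the genes. It compares the DN gate as sorted, in which many markers of other blood cells were also higher, with DP cells. Whether progenitors alone change in the same way was not tested. Plac8 fell from DN to DP by 5.52 ± 0.23 (45.7-fold, 95% interval -6.03 to -5.00, limma adjusted p = 6.94e-08), which ranked 11th among the falls of all genes. Nt5dc2 fell by 1.58 ± 0.12 (2.98-fold, 95% interval -1.84 to -1.31, limma adjusted p = 3.21e-06). The 3 DN arrays lay above the 3 DP arrays for both genes, as they did for 24.0% of all genes. Dapl1 differed by 0.18 ± 0.22 and was not called (95% interval -0.30 to 0.66, limma adjusted p = 0.572). Among all genes tested, 36.6% were called in this comparison, 18.8% lower and 17.8% higher in DP, so that a call by itself was common here. In the fit of the 6 DN and DP arrays alone, the limma adjusted p was 7.99e-05 for Plac8, 4.10e-04 for Nt5dc2 and 0.30 for Dapl1. Both calls held, and Dapl1 was not called, in each of the 24 alternative settings.

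The differences without overlap stand against a common background. In CD8SP against CD4SP all 3 genes, by the choice, lay higher without overlap, as did 11.6% of all genes. Against DP, 23.3% of genes lay lower and 26.1% higher without overlap in CD4SP, and 25.8% and 22.8% in CD8SP. Against DN these shares were 25.4% and 30.2% in CD4SP and 26.2% and 23.5% in CD8SP. Non-overlap alone is therefore frequent in each of these comparisons, and the ranks given above describe where the 3 genes stand within them.

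**Figure D2:**
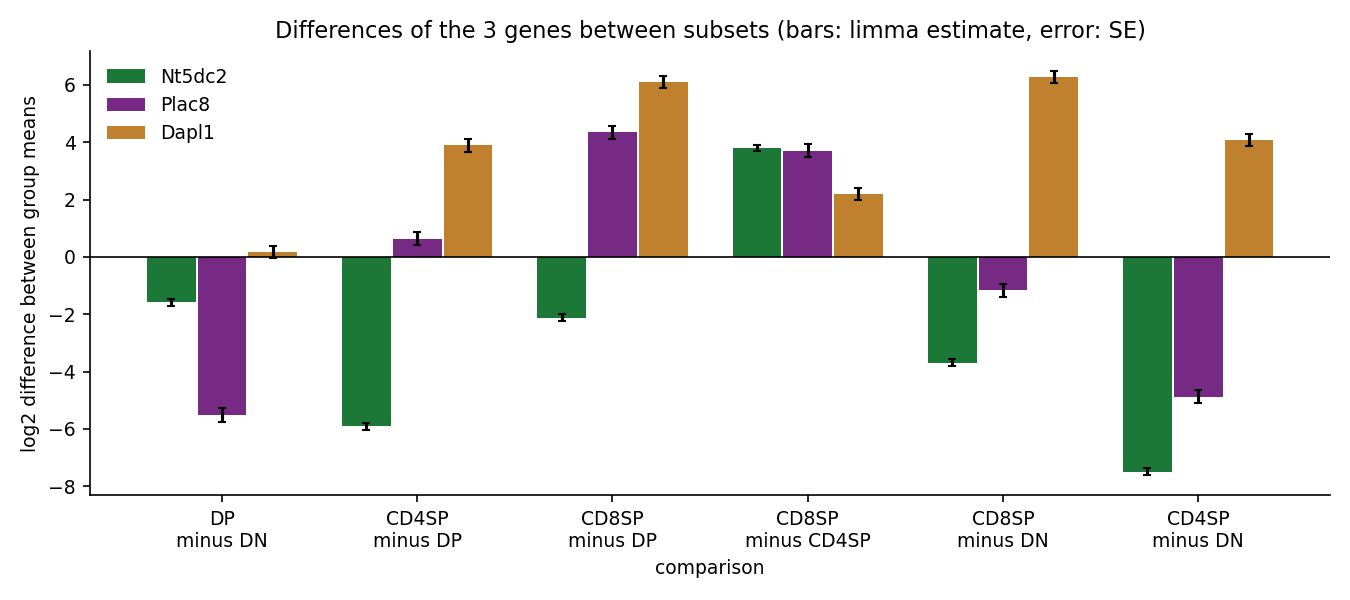
Log2 differences between group means (vertical axis) of the 3 genes in 6 comparisons (horizontal axis), with bars for the limma estimate and error bars for its SE (3 arrays per group, fit over all 12). The 3 bars point the same way only in CD8SP minus CD4SP, by which the genes were chosen, where they reach 3.80, 3.71 and 2.20.

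The DN gate is defined in the labels by what its cells lack, and many markers of other blood cells were higher on the DN arrays, where Plac8 was highest. These counts stand beside the 18.8% of all genes called lower and 17.8% called higher in DP. All 9 measured neutrophil markers were called lower in DP than in DN, with a median difference of -4.80, against 0.04 over all genes. Camp, a granule peptide gene of neutrophils, lay at 7.26, 8.28 and 10.28 on the DN arrays. Of the B cell markers 3 of 8 were called lower in DP (Cd79a, Ms4a1 and Blnk, median -0.78), and 7 of 8 without DN replicate 1. Of the NK and innate lymphoid markers 4 of 6 were lower (median -1.26), of the monocyte and macrophage markers 2 of 7 (median -0.20), of the dendritic cell markers 4 of 8 (median -0.50) and of the γδ T cell markers 2 of 3 (median -1.04), with 1 higher. Of 9 thymic stroma markers 2 were lower (median 0.21). Of 3 erythroid markers 0 were lower and 1, Hba-a1, was higher in DP (median 0.25). The part of other cells in the Plac8 and Nt5dc2 falls was not tested.

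The mean over the neutrophil list was 3.73, 4.39 and 5.70 on DN replicates 1, 2 and 3. The mean over the B cell list was 0.39, 2.26 and 1.97 on the same arrays. Plac8 was lowest on DN replicate 1 as well (5.19), whereas Nt5dc2 was highest there (1.76). Without DN replicate 1 DP minus DN was -5.68 ± 0.25 for Plac8 and -1.49 ± 0.13 for Nt5dc2.

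Between CD8SP and CD4SP, where Plac8 lay higher in CD8SP, 4.91% of all genes were called higher and 7.78% lower, so few calls are to be had from lists of this size. The neutrophil list mean ran from 0.01 to 0.38 in CD8SP and from 0.03 to 0.23 in CD4SP, and that of the dendritic cell list from -0.09 to 0.05 and from 0.08 to 0.09. That of the monocyte and macrophage list was lower in CD8SP (0.02 to 0.13) than in CD4SP (0.27 to 0.38), and that of the B cell list was higher (-0.00077 to 0.20 against -0.55 to -0.33). With limma, 0 of 9 neutrophil, 0 of 7 monocyte and macrophage and 0 of 6 NK and innate lymphoid markers were called between the 2 subsets, and of these markers 1, the monocyte receptor gene Ccr2, had an unadjusted p under 0.05. Of the dendritic cell markers 1 of 8, Tcf4, was called lower in CD8SP. Of the B cell markers 1 of 8 was called higher, Cd79b, which encodes a signalling chain of the B cell receptor, while Cd79a and Ms4a1 were not called. The median difference of the B cell list was 0.03, against -0.03 over all genes. Its higher mean in CD8SP thus came largely from Cd79b and not from the list as a whole. Cd79b lay at -5.07, -4.10 and -4.47 in CD4SP and at -0.79, -0.11 and -0.08 in CD8SP. Outside the list, the immunoglobulin gene Ighv14-2 was also higher in CD8SP, by 4.39 ± 1.02, and other immunoglobulin genes are not shown.

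**Figure D3:**
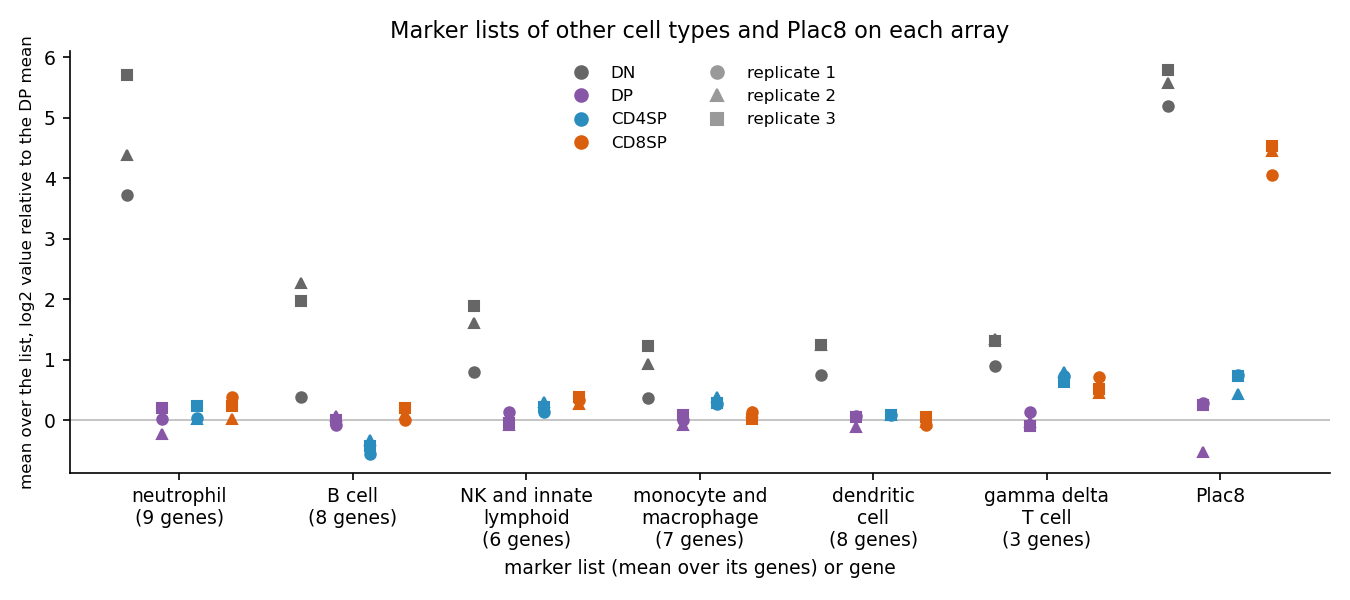
Mean log2 value relative to DP over 6 marker lists of other cell types, and the value of Plac8 (vertical axis), for each array; colours are subsets and symbols replicates. The DN arrays reach up to 5.70 for neutrophil markers, and DN replicate 1 lies at 0.36 for monocyte and macrophage markers, within the CD4SP range. CD8SP lies between 4.05 and 4.53 for Plac8 and at most at 0.72 for the lists.

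None of the relatives of the 3 genes came near their range of values. Of 9 measured 5′-nucleotidase genes 0 were called between CD8SP and CD4SP with limma, where 4.91% of all genes were higher and 7.78% lower in CD8SP, and 4 had an unadjusted p under 0.05. The median difference of these 9 genes was 0.09, against -0.03 over all genes. Without CD8SP replicate 1, Nt5c (0.53, limma adjusted p = 0.0174) and Nt5c3b (0.35, limma adjusted p = 0.0349) were called higher in CD8SP, as they were with array weights, and Nt5e was when each gene was read from its probe set of smallest spread. Nt5dc1 and Nt5dc3, the nearest in name, lay at 0.54 and 0.64 in CD4SP and at 0.38 and 0.79 in CD8SP, all 4 called above DP, where Nt5dc2 lay at -5.92 and -2.12.

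Among the other nucleotidases, Nt5e, which encodes the surface enzyme CD73 that makes adenosine, rose from DP by 1.48 ± 0.14 in CD4SP and by 1.80 ± 0.14 in CD8SP. Nt5c3, a pyrimidine nucleotidase gene, rose by 0.40 ± 0.11 and 0.47 ± 0.11. Nt5c2, which encodes a purine nucleotidase of the cytosol, was the only one of the 9 that fell from DP, by 0.79 ± 0.09 in CD4SP and 1.02 ± 0.09 in CD8SP. Of the 9, 4 were called higher and 1 lower than DP in each of these comparisons. Among all genes, 16.4% and 16.2% were called higher and lower in CD4SP, and 18.2% and 20.9% in CD8SP. From DN to DP, Nt5c rose by 0.67 ± 0.13, whereas Nt5e fell by 0.95 ± 0.14, Nt5dc3 by 0.37 ± 0.09 and Nt5m, the mitochondrial enzyme gene, by 0.32 ± 0.08.

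Plac8l1, the relative of Plac8, had a range of less than 1 log2 unit between group means. It rose from DN to DP by 0.55 ± 0.13, where Plac8 fell, and its difference between CD8SP and CD4SP was 0.22 ± 0.13 (limma adjusted p = 0.318). Dap, the relative of Dapl1, resembled it in direction at a smaller size. It rose from DP by 0.73 ± 0.14 in CD4SP and by 1.25 ± 0.14 in CD8SP, and differed from DN to DP by 0.02 ± 0.14. The difference of Dap between CD8SP and CD4SP was 0.53 ± 0.14 (limma adjusted p = 0.0316). That call ended without any of the 3 CD4SP arrays or without CD8SP replicate 2 or 3, when just the 6 CD4SP and CD8SP arrays were fitted, when each gene was read from its highest probe set (limma adjusted p = 0.0593) and with quantile normalization (0.602).

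**Figure D4:**
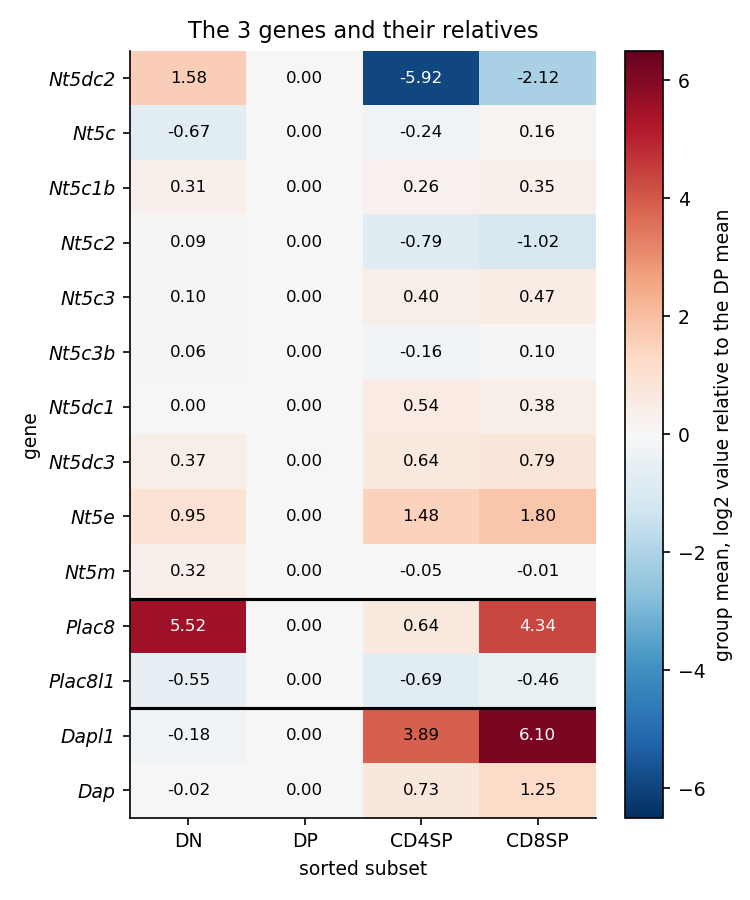
Group means of log2 values relative to DP (colour and printed number) for Nt5dc2 and 9 other 5′-nucleotidase genes, for Plac8 and Plac8l1, and for Dapl1 and Dap (rows), in 4 sorted subsets (columns). The values of Nt5dc2 (-5.92), Plac8 (5.52) and Dapl1 (6.10) are far from 0, while no relative goes beyond 1.80.

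The 3 genes were also set beside lists of lineage genes in CD8SP against CD4SP. The 10 highest differences in that comparison were those of Cd8a (6.20), Nkg7 (6.08), Itgae (5.93), Cd8b1 (4.83), Klrd1 (4.46), Ighv14-2 (4.39), Cd79b (4.22), Nt5dc2 (3.80), Cxxc5 (3.73) and Plac8 (3.71). Among all genes 4.91% were called higher and 7.78% lower in CD8SP than in CD4SP, with a median difference of -0.03. Of 16 cytotoxic effector genes 8 were higher in CD8SP, 1 was lower and 7 were not called, with a median of 1.01. Those higher included Nkg7, a granule membrane protein gene (6.08 ± 0.39), the NK receptor gene Klrd1 (4.46 ± 0.42), the chemokine gene Xcl1 (3.43 ± 0.22) and the adhesion receptor gene Crtam (2.61 ± 0.21), and the lower gene was Fasl (-0.86 ± 0.14). Gzma (limma adjusted p = 0.0472) and Ctsw (limma adjusted p = 0.0239) were also among the 8. The call of Gzma ended when any 1 array other than CD8SP replicate 3 was left out. That of Ctsw ended without any of the 3 CD4SP arrays or without CD8SP replicate 2 or 3. The values of Nt5dc2 and Plac8 (3.80 and 3.71) lay between those of Klrd1 and Xcl1, and that of Dapl1 (2.20) lay below that of Crtam. Among 7 CD8 lineage genes 6 were higher, with a median of 3.30. The 6 include the coreceptor genes Cd8a and Cd8b1, whose calls follow from the sort. Itgae, which encodes the αE integrin, was higher by 5.93 ± 0.40, and Runx3, the gene of the CD8 lineage factor, by 0.83 ± 0.12.

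Of 7 CD4 lineage genes 6 were lower in CD8SP, with a median of -1.80, beside 7.78% of all genes lower and 4.91% higher. Among the 6 were Zbtb7b, the gene of the CD4 lineage factor ThPOK (-3.02 ± 0.21), and Tnfrsf4, which encodes OX40 (-3.30 ± 0.12). The 6 also include Cd4, whose call follows from the sort. Genes of naive and mature T cells, like Dapl1, were mostly higher in both single-positive subsets than in DP. Of 12 measured, 11 were higher than DP in CD4SP and 12 in CD8SP, beside 16.4% and 18.2% of all genes. Between CD8SP and CD4SP 0 were higher and 4 were lower (Lef1, Il7r, Foxp1 and Bach2, median -0.29). That count of 4 was 1 or 2 without any one of the CD4SP and CD8SP arrays or DN replicate 3. It was 2 with the replicate number as a block, robust eBayes, a variance trend or median centring, and 0 with quantile normalization. Without CD8SP replicate 1 or DN replicate 1, 1 gene was called higher.

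Lists of other T cells and of stroma stand beside the same 4.91% of all genes called higher and 7.78% called lower in CD8SP. Of 6 regulatory T cell markers 4 were lower in CD8SP and 1 was higher (median -1.03), Ctla4 by -1.35 ± 0.21 and Ikzf2 by 0.59 ± 0.14. Of 4 NKT cell markers 3 were lower and 1 higher (median -0.62), Zbtb16, the gene of the NKT factor PLZF, by -1.96 ± 0.18 and the chemokine receptor gene Cxcr6 by 3.27 ± 0.56. Of 9 thymic stroma markers 1 was lower, Pecam1 (-0.93 ± 0.23), with a median of 0.02. With limma, 0 of 3 erythroid and 0 of 3 γδ T cell markers were called, and 1 of each (Klf1 and Cd163l1) had an unadjusted p under 0.05.

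The order of groups of each of the 3 genes was also counted over all genes. Other orders were not counted, so these shares do not show whether the 3 orders are rarer than others. The order of Nt5dc2, with no overlap between neighbours, was found in 127 of 18193 genes (0.698%), and that of Plac8 in 118 (0.649%). The order of Dapl1, CD8SP over CD4SP over DN and DP with DN and DP overlapping, was found in 124 (0.682%). Within each of these groups of genes the median distance between CD8SP and CD4SP was 0.44, 0.40 and 0.30. It was 3.80, 3.71 and 2.20 for the 3 genes, which were chosen by this distance. Their lead within these groups therefore follows from the choice and is given only as a description. The next largest distances belonged to Adssl1 (1.58), Coro2a (1.81) and Tdgf1 (1.93).

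The genes nearest to each member were found by the root-mean-square (RMS) difference over the 12 arrays, with such identifiers again passed over. The nearest to Nt5dc2 was Adssl1, a gene of adenosine monophosphate synthesis, at an RMS difference of 1.01, with means of 2.19 in DN, -4.25 in CD4SP and -2.67 in CD8SP. It was followed by the granzyme gene Gzma (1.31), Cd79b (1.33), the pre-T cell receptor gene Ptcra (1.36) and Sapcd1 (1.49). Of these, Cd79b came nearest to the gap between CD8SP and CD4SP, at 4.22, whereas Ptcra lay at -3.46 and -3.14 in CD4SP and CD8SP.

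The nearest to Plac8 was Coro2a, which encodes an actin-binding coronin, at an RMS difference of 0.85, with means of 4.81 in DN, 1.79 in CD4SP and 3.61 in CD8SP. It was followed by the lipid transporter gene Atp8b4 (0.998), Cst7 (1.32), the tubulin gene Tubb3 (1.39) and Myc (1.48). Tubb3 was the one of these at or below DP in CD4SP, at -0.22, with 3.08 in DN and 3.40 in CD8SP.

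The nearest to Dapl1 was Tdgf1, the gene of the growth factor co-receptor Cripto. Its RMS difference of 0.354 was the smallest found for any of the 3 genes. It lay at 4.21, 4.04 and 3.91 on the CD4SP arrays and at 5.67, 6.22 and 6.07 on the CD8SP arrays, with means of -0.11 in DN and 4.05 and 5.98 in the single-positive subsets. The next were Gabrr2, a GABA receptor gene (0.937), Ifi27l2b (0.979), Ms4a4b (1.0) and Pced1b (1.05). These 4 lay at similar heights in both subsets, for example at 4.67 in CD4SP and 4.90 in CD8SP for Ms4a4b.

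**Figure D5:**
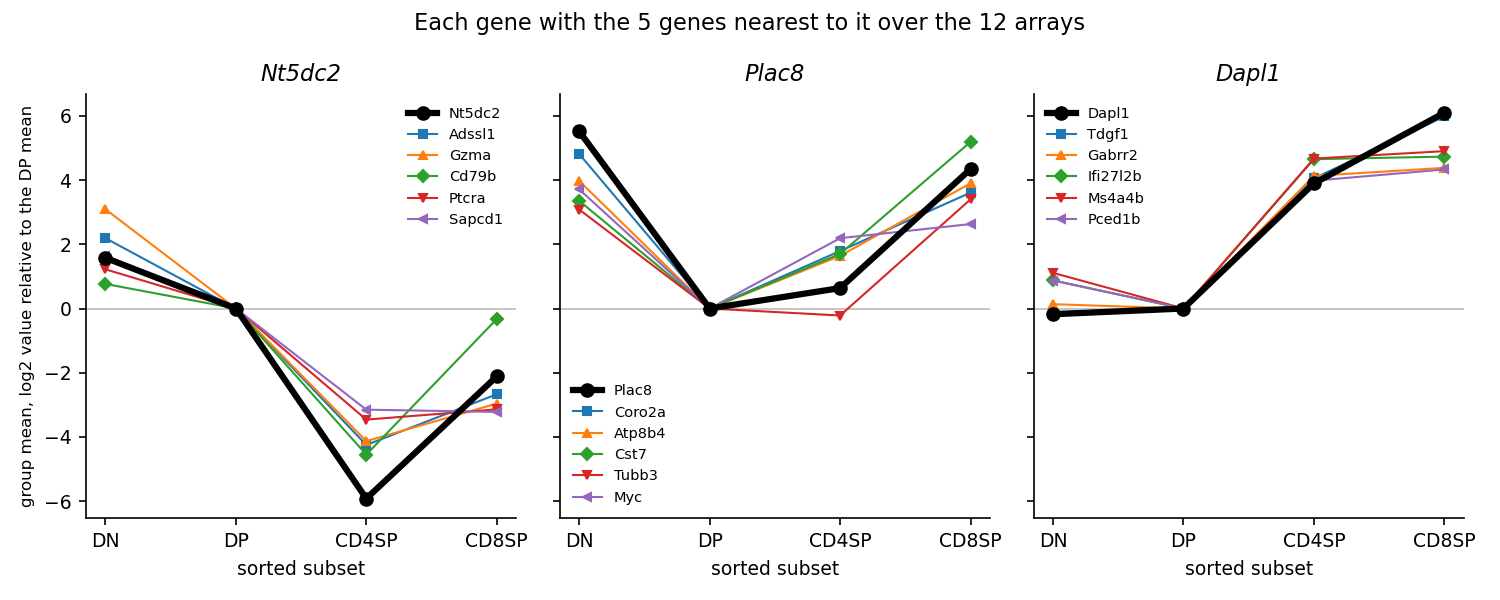
Group means of log2 values relative to DP (vertical axis) in the 4 subsets (horizontal axis) for each of the 3 genes (black) and the 5 genes with the smallest root-mean-square difference from it over the 12 arrays. Tdgf1 follows Dapl1 within 0.354 on average, while none of the 5 genes shown beside Nt5dc2 follows it down to -5.92 in CD4SP.

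By Pearson's r, which compares shape and not size, other genes came first. For Nt5dc2 they were Rnaseh2b (r = 0.989), Gmnn, which encodes the replication inhibitor geminin (0.987), the kinetochore gene Spc24 (0.981), Pmm1 (0.981) and Banf1 (0.981). For Plac8 they were the small GTPase gene Rras2 (0.978), the uracil-DNA glycosylase gene Ung (0.978), the folate enzyme gene Mthfd1l (0.975), Aven (0.971) and the histone-binding gene Rbbp7 (0.970). For Dapl1 they were the receptor gene Cd226 (0.993), Tdgf1 (0.991), Agfg1 (0.986), Il10rb (0.982) and Cotl1 (0.981). Most varied far less than the member they resembled, for example -1.51 for Gmnn in CD4SP and 1.33 for Ung in CD8SP. These coefficients describe 12 arrays in 4 tight groups and carry no test. Tdgf1 alone was among the 5 nearest by both measures. Among the members themselves, r was 0.476 between Nt5dc2 and Plac8, -0.680 between Nt5dc2 and Dapl1 and 0.089 between Plac8 and Dapl1.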

How the data were processed

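RNA of 4 thymocyte subsets, 3 arrays each, was analysed, grouped by sample title. The authors deposited 1 log value per probe set and array, read here as log2, with the DP mean of its 3 arrays subtracted (largest absolute DP mean 1.27e-06). MAS5 is named, per the submitters' processing notes, without version or role, and no log base is stated. Levels and signal over background were lost, so no dim probe sets could be filtered. The number of arrays limits the precision.

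Of 45101 probe sets, 34958 had 1 symbol in the platform annotation, 932 several and 9211 none. With 64 control probe sets left out, 34945 were averaged into 18193 genes, and 34741 were found in the RefSeq table with 0 symbols differing. No further normalization was applied (array medians -0.096 to 0.05). All 12 arrays were fitted as 4 group means in limma 3.58.1 under R 4.3.3 without a variance trend. P-values are two-sided and Benjamini-Hochberg adjusted over all genes within a comparison, and genes were called under 0.05. "Rose" and "fell" are kept for called genes, and differences are given ± SE of the fit. In simulated DP against DN data with 18193 genes, 34%, 82%, 98% and 100% of 50 genes each changed by 0.5, 1, 2 and 4 (log2) were recovered, and 12 unchanged genes were called.

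The 3 genes and all gene lists were chosen with earlier results of these data known. Named genes are the 3 genes and their relatives, the 5 nearest to each by root-mean-square difference and by Pearson's r, the 10 highest CD8SP minus CD4SP differences without overlap, the sort genes, and up to 4 genes per list with the lowest adjusted p in CD8SP minus CD4SP. Further marker genes, Fasl, Cd79a and genes named from small counts were chosen after their values were seen. Arrays of the same replicate number did not deviate together throughout (residual r 0.106 to 0.156 for number 1, -0.025 to 0.0884 for number 2 and 0.0214 to 0.139 for number 3, against -0.162 to 0.0797 for arrays of different numbers). All pairs of number 1 but not of numbers 2 and 3 lay over 0.1, so the numbers were not taken to pair the arrays. Promoter windows are those of RefSeq (GRCm38.p6), matched by symbol for all 3 genes. Alternatives were other probe set rules, eBayes settings, array weights, normalizations, a replicate block and left-out arrays.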

Additional observations from a re-analysis of the deposited data

How the results depend on the processing

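Of 432 alternative values of the 3 genes over 6 comparisons, 417 moved by at most 1 SD between replicates, 15 moved further and 0 reversed. Many of the 417 could not move and say nothing about stability. Each gene has 1 probe set, so the probe set rules keep its value. The eBayes settings, the replicate factors, the fit of 6 arrays and leaving out an array outside the comparison also keep the difference. All 15 that moved further came from quantile normalization, which forces arrays centred on DP to one distribution and so widens the DP arrays. With it, DP minus DN was -1.36 for Nt5dc2 and -4.66 for Plac8, and both calls held. CD8SP minus CD4SP was 2.62 for Nt5dc2, 2.73 for Plac8 and 1.62 for Dapl1. CD4SP minus DP was -4.17 for Nt5dc2 and 3.04 for Dapl1, and CD8SP minus DP was -1.56, 3.21 and 4.66 for the 3 genes in that order. CD8SP minus DN was -2.92 for Nt5dc2 and 4.83 for Dapl1, and CD4SP minus DN was -5.53, -4.18 and 3.21. Quantile normalization also lowered the percent of genes called higher and lower, to 7.89% and 9.22% in DP minus DN, 6.91% and 9.10% in CD4SP minus DP, and 6.79% and 8.38% in CD8SP minus DP. It gave 0.61% and 0.649% in CD8SP minus CD4SP, 6.91% and 10.3% in CD8SP minus DN, and 9.56% and 13.3% in CD4SP minus DN.

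When each gene was read from its highest probe set, 13.6% of genes were lower in CD8SP minus DP and 4.86% in CD8SP minus CD4SP. In the latter, genes called higher were 8.73% with array weights and 2.86% (4.55% lower) with only the 6 arrays compared. Leaving out 1 array, or DN replicate 1 and CD8SP replicate 1 together, gave 2.95% to 7.92% higher and 4.46% to 8.50% lower. The share called higher was 7.50% without CD8SP replicate 1, and 2.95% to 3.09% without CD4SP replicate 2 or 3 or CD8SP replicate 2 or 3. The cause of these shifts was not tested. In DP minus DN, the adjusted p over 24 alternatives ran from 8.63e-07 to 0.0031 for Nt5dc2, from 2.37e-08 to 2.11e-04 for Plac8 and from 0.30 to 0.775 for Dapl1. With the replicate block the adjusted p was 2.21e-05, 1.11e-06 and 0.414, and 5.94% and 9.47% of genes were called higher and lower in CD8SP minus CD4SP. The block changed no call of the 3 genes, but Il7r (adjusted p = 0.0537) and Foxp1 (0.0546) lost theirs in CD8SP minus CD4SP. With the arrays numbered 1 as a factor, the adjusted p of DP minus DN was 5.07e-06, 3.18e-07 and 0.452, and 6.75% and 10.4% of genes were called higher and lower in CD8SP minus CD4SP. Hspa1b, a heat shock gene, was highest on replicate 1 in each group (DN 3.76, DP 1.12, CD4SP 1.75, CD8SP 1.51). It is a single gene outside the lists and the naming rules above, other heat shock genes are not shown, and its cause was not tested. Of 4416 list counts, 391 moved by over 1.5 times. The planned fit without the dim probe sets was not run, since signal levels are not in these values.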
